A study of Mus musculus with 20 samples.

Results

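The genes described here are 7 haemoglobin chains and 2 other red cell genes, followed heart by heart in whole mouse hearts at E13.5 (E, embryonic day). They were taken by name from the deposited table of normalised expression and make up 9 of its 48795 genes: the alpha-like globins Hba-x, Hba-a1 and Hba-a2, the beta-like globins Hbb-y, Hbb-bh1, Hbb-bt and Hbb-bs, the haem synthesis enzyme Alas2 and the red cell anion exchanger Slc4a1. The hearts came from mice that model Down syndrome, Dp3Tyb and Ts1Rhr, which carry an extra copy of a stretch of chromosome 16 (Dp(16Mir802-Zbtb21)3TybEmcf and Dp(16Cbr1-Fam3b)1Rhr), and from wild-type (WT) controls of each, all on the C57BL/6J background. The Ts1Rhr stretch is the shorter one and lies within the Dp3Tyb stretch, and none of the 9 genes lies on chromosome 16. There were 4 groups of 5 hearts, each strain with its own WT group, and a strain together with its WT group is called a cohort. The strains were compared in the study to find which changes accompany heart defects, which it describes in Dp3Tyb and not in Ts1Rhr, although the labels of Ts1Rhr hearts 1 and 2 name defects. All 5 were kept as 1 group by genotype. The labels name no litter, sex or collection day.

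Haemoglobin carries oxygen as a tetramer of alpha-like and beta-like chains around haem. In the mouse, the first red cells arise in the yolk sac, circulate as large nucleated primitive cells and use the embryonic chains Hba-x (zeta), Hbb-y (epsilon y) and Hbb-bh1 (beta h1) beside alpha chains. Definitive red cells, made in the fetal liver, use the adult chains Hba-a1 and Hba-a2 with Hbb-bt and Hbb-bs, and at midgestation both kinds of cell are in the blood. A whole heart holds blood in its chambers and vessels, and the protocol in the labels mentions no step to remove it before freezing. In such bulk RNA, fewer red cells and less RNA per red cell cannot be told apart.

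The alpha-like genes form a cluster on chromosome 11, with Hba-x at chr11:32276600-32278116, Hba-a1 at chr11:32283672-32284486 and Hba-a2 at chr11:32296492-32297310 (GRCm38.p6, RefSeq). The beta-like cluster is on chromosome 7, with Hbb-bt at chr7:103812524-103813923, Hbb-bs at chr7:103826523-103827928, Hbb-bh1 at chr7:103841638-103843162 and Hbb-y at chr7:103851754-103853207. Alas2 is X-linked (chrX:150547417-150570622), and Slc4a1 lies on the same chromosome as the alpha-like cluster (chr11:102348820-102365281). The 120 bases before the annotated start of transcription were read from RefSeq promoter sequences for 7 of the 9 genes and are shown because embryonic and adult genes of 1 cluster are used at different times. Printed 5′ to 3′ on the gene's own strand, with capitals for 4 short motifs that are spelled out after them and were searched on both strands, overlaps included, the windows of the main embryonic and adult chains and of Alas2 read:
Hba-x, chr11:32276480-32276599, + strand: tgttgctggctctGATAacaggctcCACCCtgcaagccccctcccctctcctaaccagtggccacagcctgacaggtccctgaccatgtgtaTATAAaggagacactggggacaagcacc
Hba-a2, chr11:32296372-32296491, + strand: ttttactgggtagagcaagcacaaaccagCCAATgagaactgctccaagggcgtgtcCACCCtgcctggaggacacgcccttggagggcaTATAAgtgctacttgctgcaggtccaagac
Hbb-y, chr7:103853208-103853327, - strand: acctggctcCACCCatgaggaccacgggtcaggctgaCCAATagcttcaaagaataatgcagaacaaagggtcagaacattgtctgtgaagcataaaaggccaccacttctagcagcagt
Hbb-bs, chr7:103827929-103828048, - strand: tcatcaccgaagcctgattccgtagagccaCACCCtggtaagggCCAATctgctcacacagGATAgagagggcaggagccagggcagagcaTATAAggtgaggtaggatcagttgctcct
Hbb-bt, chr7:103813924-103814043, - strand: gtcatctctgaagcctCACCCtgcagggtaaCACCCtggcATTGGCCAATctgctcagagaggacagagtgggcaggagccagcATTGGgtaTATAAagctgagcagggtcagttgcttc
Alas2, chrX:150547297-150547416, + strand: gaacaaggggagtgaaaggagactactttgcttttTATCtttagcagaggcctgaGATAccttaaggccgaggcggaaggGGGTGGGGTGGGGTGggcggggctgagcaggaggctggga
A CACCC, or GGGTG as its reverse complement, stood in all 7 windows, against 31.7% of the 32851 windows of the same length in the table. CCAAT or its reverse complement ATTGG stood in 5 windows (not in those of Hba-x and Alas2) against 21.3%. TATAA or its reverse complement TTATA also stood in 5 windows (not in those of Hbb-y and Alas2), against 11.8%. GATA or its reverse complement TATC stood in 3 windows, those of Hba-x, Hbb-bs and Alas2, against 29.5%. These are matches of letters only, and nothing in the data measured binding at them. Among the alpha-like genes Hba-x held GATA and no CCAAT, while Hba-a1 and Hba-a2 held CCAAT and no GATA. Among the beta-like genes Hbb-y lacked the TATAA that Hbb-bt and Hbb-bs held.

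The adult genes of each cluster are near copies. The coding sequences of Hba-a1 and Hba-a2 differed at 1 of 429 bases, and 79.5% of the 50-base windows of the Hba-a1 transcript also occurred in Hba-a2. Those of Hbb-bt and Hbb-bs differed at 1 of 444 bases, with 58.2% of the 50-base windows of Hbb-bt shared. The split of reads between the members of such a pair depends on how the counting program divided ambiguous reads, so single values of these 4 genes are uncertain and their sums are firmer. Embryonic genes shared no 50-base window with any other globin, so the split into embryonic and adult does not rest on that division. Hbb-y and Hbb-bs were 74.3% identical over their coding bases and Hba-x and Hba-a2 were 61.8% identical.

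Libraries held between 6600839 and 19634514 reads (counting error only, since amplified reads are not independent molecules). Mitochondrially encoded reads took between 4.85% and 19.5% of a library and exceeded 10% in 7 libraries, namely WT heart 5 and Dp3Tyb heart 5 of the Dp3Tyb cohort and WT hearts 1, 2 and 4 and Ts1Rhr hearts 1 and 2 of the Ts1Rhr cohort. Dyrk1a, in 3 copies in both strains, was at 2403 to 3196 in Dp3Tyb and 2413 to 2759 in Ts1Rhr hearts, above every heart of the WT groups (1692 to 2287 and 1740 to 2339). Cbr1 is named in the Ts1Rhr allele, but the study places it in the part duplicated in Dp3Tyb and not in Ts1Rhr. It was at 483 to 573 in Dp3Tyb hearts against 309 to 358 in their WT group, and at 368 to 442 in Ts1Rhr against 352 to 450. Cardiac muscle markers (7 genes) summed to between 272733 and 467815 in each heart. A list of 8 liver genes summed to between 212 and 624, of which the defining genes Alb (albumin) and Fgb (fibrinogen) had medians of 7.95 (1.70 to 85.9) and 0 (0 to 5.86) and the fetal liver gene Afp one of 12.9 (1.198 to 94.7), and the part of liver RNA in the globin values was not tested.

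All 9 genes had reads in every heart, from 30 reads for Hbb-bh1 in 1 library to 88867 for Hba-a2. Per kb of the annotated canonical transcript, the mean over the 10 WT hearts was highest for Hba-a2, at 39054, which was rank 18 of 15217 genes that passed the filter on low values and had a length. Next came the embryonic Hbb-y at 37121 (rank 19), then Hbb-bs at 24069 (rank 27), Hba-a1 at 23636 (rank 28), Hbb-bt at 11036 (rank 44) and Hba-x at 8395 (rank 65). Hbb-bh1, whose use ends earliest in development, was at 673 (rank 1242), Alas2, which sets the pace of haem synthesis in red cells, at 398 (rank 2260), and Slc4a1, also known as band 3, at 191 (rank 4802). Globins were therefore among the most abundant transcripts of these hearts, and the embryonic Hbb-y was near Hba-a2 alone but below the sum of both adult alpha copies.

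They were also among the most variable. The SD within groups on the log2 scale was between 0.44 for Hba-a1 and 0.88 for Hbb-bh1, against a median of 0.22 over 15348 genes. For Hbb-bh1 96.4% of these genes varied less, for Hbb-bt 94.0%, for Slc4a1 90.0% and for Hba-a1 82.9%. From the lowest to the highest heart, levels spanned 6.80 times for Hba-a1 and 16.2 times for Hbb-bh1.

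**Figure D1:**
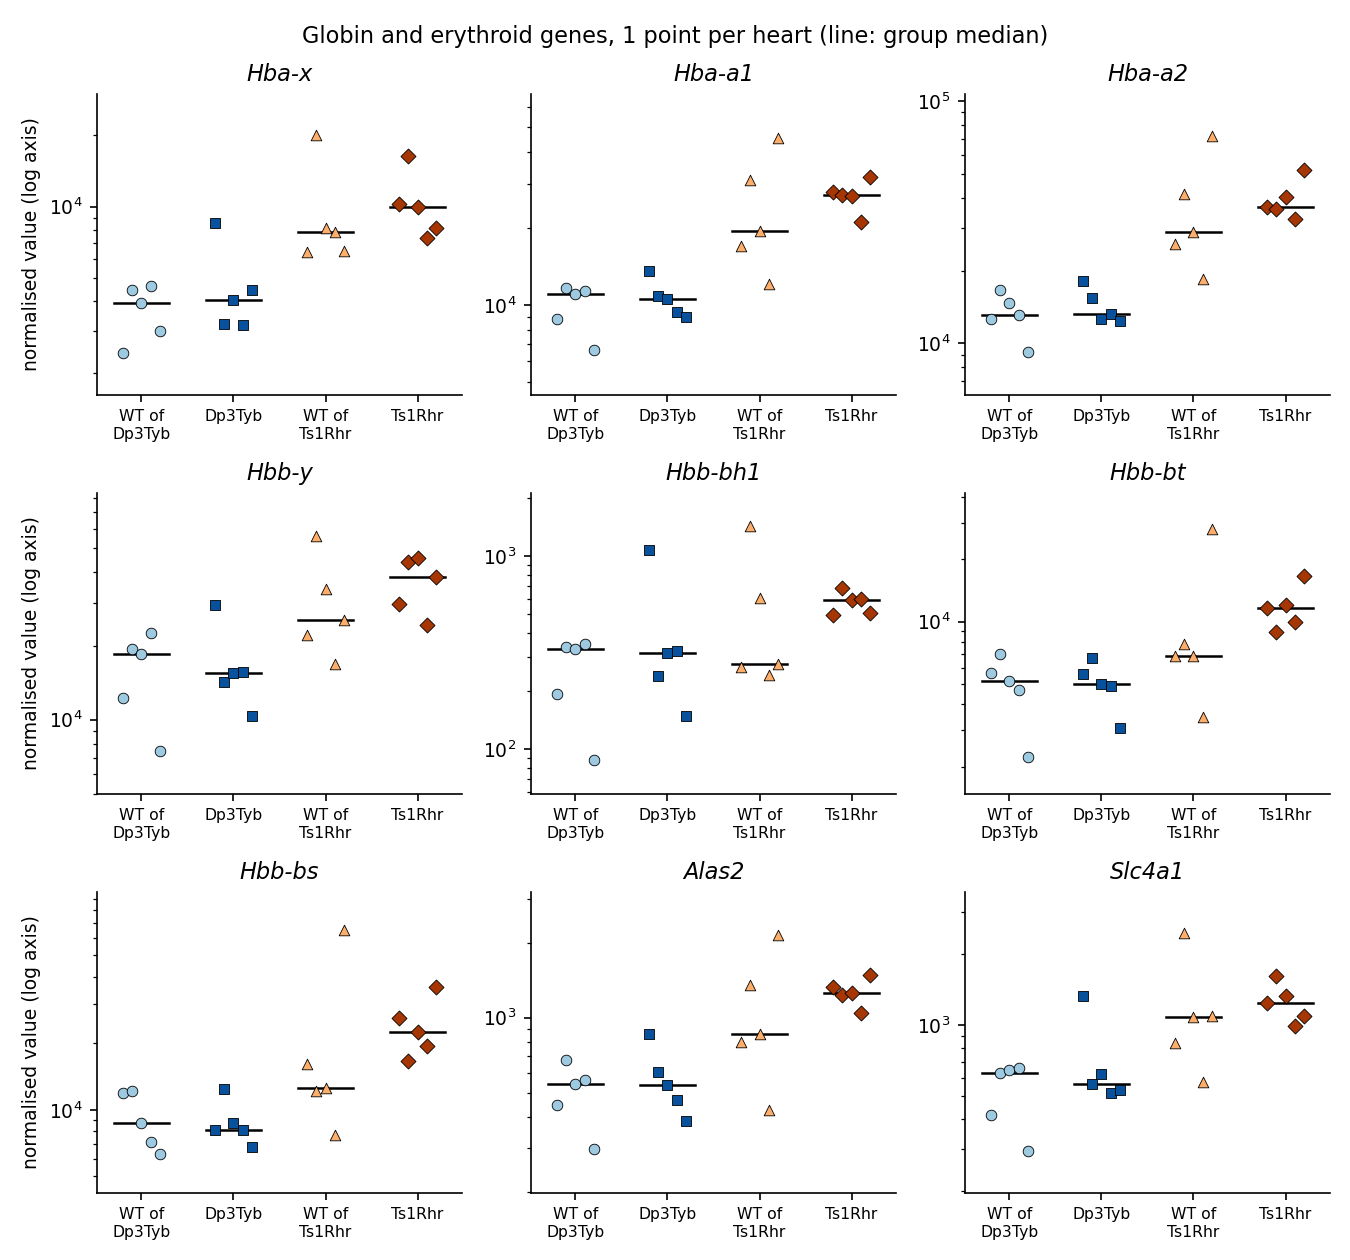
Normalised value of each gene in each of the 20 hearts (log axis), with 1 point per heart and a line at the group median. In every panel the hearts of a strain overlapped those of its own WT group, and in the Ts1Rhr cohort most points lay higher than in the Dp3Tyb cohort.

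Adult alpha globin pairs with the beta-like chains. In the WT hearts of the Dp3Tyb cohort, Hba-a2 was at 12589, 16672, 14759, 13091 and 9210 (normalised value, hearts 1 to 5), and in Dp3Tyb hearts at 18114, 15406, 12596, 13204 and 12425. The WT hearts of the Ts1Rhr cohort held 25784, 41380, 28925, 18413 and 71859, and Ts1Rhr hearts 36639, 35918, 40212, 32634 and 52010. Within a cohort the genotypes overlapped, while the lowest heart of the Ts1Rhr cohort stood just above the highest of the Dp3Tyb cohort. WT heart 5 of the Ts1Rhr cohort was the highest of all 20 hearts. Hba-a1 also overlapped between genotypes and was higher in most hearts of the Ts1Rhr cohort, but there the cohorts overlapped, with hearts of the Dp3Tyb cohort between 6656 and 13664 and those of the other cohort between 12093 and 45231.

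The adult beta chains spread more widely. Hbb-bs was at 11965, 12229, 8768, 7145 and 6327 in the WT hearts of the Dp3Tyb cohort and at 8120, 12450, 8757, 8133 and 6792 in Dp3Tyb hearts. It was at 16077, 12193, 12563, 7721 and 64834 in the WT hearts of the Ts1Rhr cohort and at 26041, 16656, 22396, 19524 and 36043 in Ts1Rhr hearts. A single heart, WT heart 5 of the Ts1Rhr cohort, thus held 64834 where the other 4 of its group lay between 7721 and 16077. Hbb-bt showed the same heart far from its group, at 28040 against 3478 to 7850, and lay between 2217 and 6979 in the Dp3Tyb cohort.

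Hbb-y, the main embryonic beta chain at this stage, picked out other hearts. Its values were 12275, 19399, 18545, 22496 and 7490 in the WT hearts of the Dp3Tyb cohort and 29324, 14246, 15545, 15708 and 10354 in Dp3Tyb hearts. In the Ts1Rhr cohort they were 22134, 56145, 34175, 16902 and 25413 in WT hearts and 29513, 44090, 45425, 24407 and 38006 in Ts1Rhr hearts. WT heart 2 led the Ts1Rhr cohort and Dp3Tyb heart 1 led the other, and neither was the heart richest in adult beta globin.

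Hba-x, the embryonic alpha chain, was highest in the same hearts. It was at 2417, 4433, 3907, 4652 and 2995 in the WT hearts of the Dp3Tyb cohort and at 8513, 3202, 4028, 3169 and 4446 in Dp3Tyb hearts, where heart 1 stood apart. WT hearts of the Ts1Rhr cohort held 6445, 19989, 8111, 7803 and 6492, with heart 2 far above the rest, and Ts1Rhr hearts 10279, 16306, 9981, 7386 and 8115. Hbb-bh1 had the fewest reads of the 7 chains and again peaked in Dp3Tyb heart 1, at 1074 against 148 to 322 in the other 4, and in WT heart 2 of the Ts1Rhr cohort, at 1429 against 241 to 606. Per kb of transcript Hbb-bh1 came to between 1.13% (WT heart 5 of the Ts1Rhr cohort) and 3.78% (Dp3Tyb heart 1) of Hbb-y.

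Of the 2 other red cell genes, Alas2 was at 445, 674, 543, 559 and 297 in the WT hearts of the Dp3Tyb cohort, at 862, 606, 538, 467 and 383 in Dp3Tyb hearts, at 800, 1352, 859, 427 and 2146 in the WT hearts of the Ts1Rhr cohort, and at 1327, 1237, 1257, 1041 and 1488 in Ts1Rhr hearts. Its highest heart was the one richest in adult globin. Slc4a1 was at 415, 628, 648, 656 and 294 in the first of these groups, at 1322, 563, 621, 516 and 530 in the second, at 842, 2439, 1077, 572 and 1093 in the third and at 1241, 1610, 1320, 989 and 1091 in the fourth. Within each cohort its highest heart, Dp3Tyb heart 1 and WT heart 2 of the Ts1Rhr cohort, was also the highest for Hbb-y, Hbb-bh1 and Hba-x.

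The 7 globins together give the blood signal of a heart. They took between 0.181% (95% Wilson interval 0.177% to 0.184%) of all reads in WT heart 5 of the Dp3Tyb cohort and 1.66% (1.66% to 1.67%) in WT heart 5 of the Ts1Rhr cohort. The share was 0.388% ± 0.122 (SD, n = 5) in the WT hearts and 0.415% ± 0.113 in the Dp3Tyb hearts of the Dp3Tyb cohort. In the Ts1Rhr cohort it was 0.886% ± 0.504 in WT and 0.984% ± 0.190 in Ts1Rhr hearts. With all hearts kept, the difference between genotypes was smaller than the spread between hearts in both cohorts. With 1 heart left out, Ts1Rhr minus WT ran from -0.031 to 0.293 points, the latter without WT heart 5 and above the Ts1Rhr SD. Dp3Tyb minus WT ran from -0.025 to 0.064 points. Between cohorts, 9 of the 10 hearts of the Ts1Rhr cohort lay above every heart of the Dp3Tyb cohort, whose highest share was 0.581%. The exception was WT heart 4, at 0.367%. That heart and the 2 lowest of the Dp3Tyb cohort (WT heart 5 at 0.181% and Dp3Tyb heart 5 at 0.265%) had 17.2%, 19.5% and 15.5% mitochondrial reads in turn, and the part of this in the low values was not tested. Among reads that are not mitochondrially encoded the cohort means were 0.431% and 1.02%, in the same order. Ts1Rhr hearts 1 and 2, whose labels name defects, held 0.875% and 0.901%, between the 0.802% and 1.28% of the other 3.

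**Figure D2:**
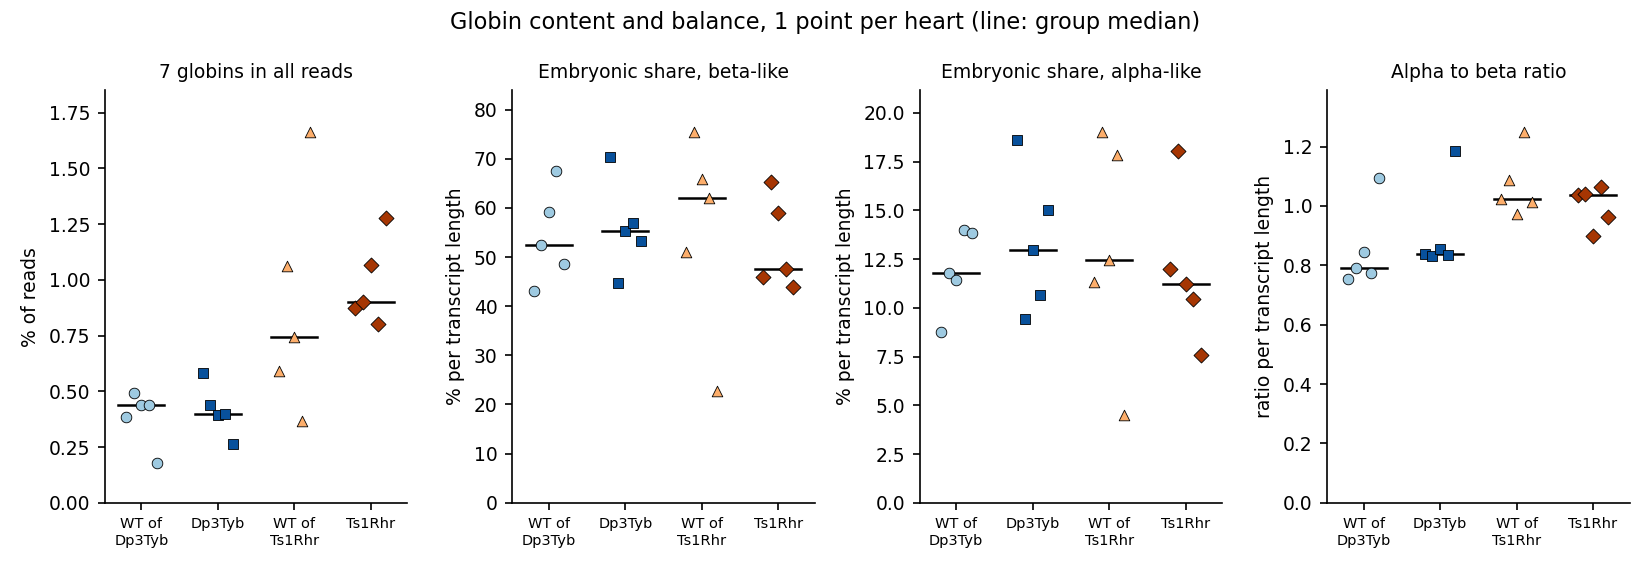
Share of all reads in the 7 globins, embryonic share of the beta-like and of the alpha-like chains, and ratio of alpha-like to beta-like chains, with 1 point per heart and a line at the group median (all axes start at 0). The first and last panels separate the cohorts in part, and the embryonic shares do not.

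The balance of primitive to definitive chains was read from the beta-like genes, as the share of Hbb-y and Hbb-bh1 in all 4 chains after division by transcript length. Over all 20 hearts the median was 54.2%, and 13 hearts held more embryonic than adult beta globin. The embryonic share was 54.2% ± 9.50 (SD, n = 5) in WT and 56.1% ± 9.29 in Dp3Tyb hearts of the Dp3Tyb cohort. It was 55.4% ± 20.2 in WT and 52.3% ± 9.29 in Ts1Rhr hearts of the Ts1Rhr cohort. With all hearts kept, the 4 group means lay within 4 percentage points of each other, well inside the spread between hearts. With 1 heart left out, Ts1Rhr minus WT ran from -11.3 points, without WT heart 5, to 1.88. Dp3Tyb minus WT ran from -1.64 to 5.29 points. As a value over chosen genes the embryonic share was described and not tested.

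Single hearts differed far more than groups. The extremes were 2 WT hearts of 1 group: heart 2 of the Ts1Rhr cohort held 75.5% embryonic beta globin and heart 5 held 22.8%. Per kb of transcript, heart 2 had 91028 of embryonic and 29512 of adult beta globin, while heart 5 had 40601 and 137471. Heart 5 was therefore not poor in embryonic chains. It held more of them than any of the 5 WT hearts of the Dp3Tyb cohort (11976 to 36112), and its adult chains were the highest of all 20 hearts, the next being 77886 in Ts1Rhr heart 5.

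**Figure D3:**
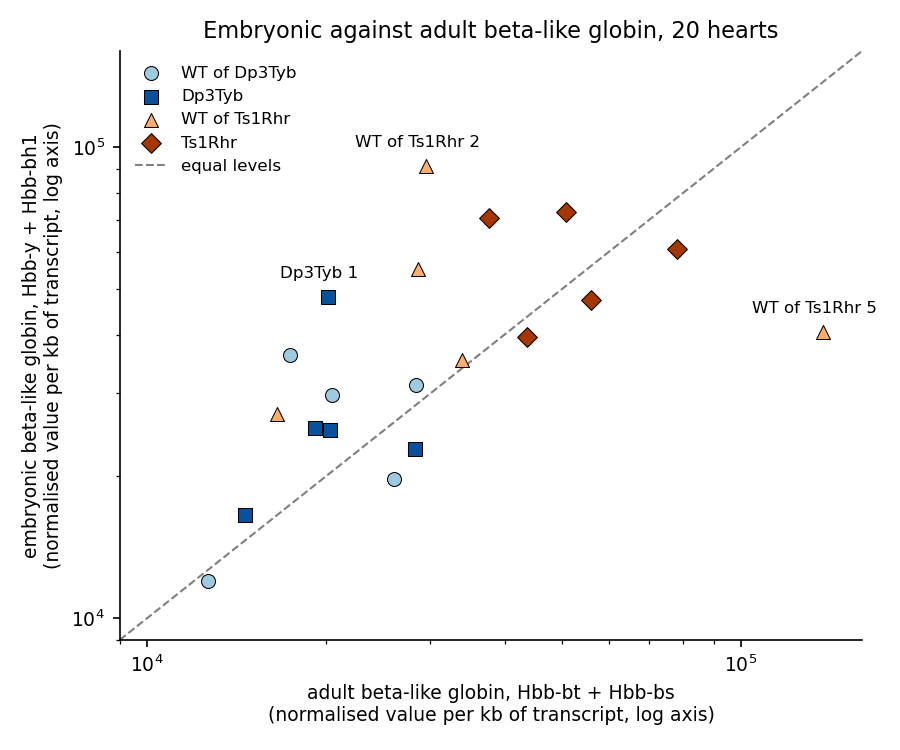
Embryonic (Hbb-y and Hbb-bh1) against adult (Hbb-bt and Hbb-bs) beta-like globin in each heart, as normalised value per kb of transcript on log axes, with a dashed line of equal levels. Cohort medians are higher in the Ts1Rhr cohort on both axes (embryonic 51205 against 25205, adult 40630 against 20241) with overlapping points, and WT heart 5 (adult 137471) and WT heart 2 (embryonic 91028) of that cohort lie far to either side of the line.

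The alpha-like chains had lower embryonic shares, with the same hearts at both ends. Hba-x made up 11.97% ± 2.14 (SD, n = 5) of the alpha-like chains per length in WT and 13.3% ± 3.65 in Dp3Tyb hearts of the Dp3Tyb cohort, and 13.0% ± 5.82 in WT and 11.9% ± 3.85 in Ts1Rhr hearts of the other. Again WT heart 5 of the Ts1Rhr cohort was lowest, at 4.49%, and WT heart 2 highest, at 19.0%. Across the 7 libraries with over 10% mitochondrial reads the share was 11.3% to 19.0% (median 15.0%), against 4.49% to 18.6% (median 11.2%) in the other 13, and the part of these reads in the share was not tested. The genotype means of each cohort differed by less than the spread between hearts.

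Red cells keep alpha-like and beta-like chains near balance. The ratio of the 2 sums per length was 0.852 ± 0.140 (SD, n = 5) in WT and 0.908 ± 0.155 in Dp3Tyb hearts, against 1.07 ± 0.109 in WT and 1.0004 ± 0.0684 in Ts1Rhr hearts. In the Dp3Tyb cohort heart 5 of each genotype, with 19.5% and 15.5% mitochondrial reads, stood above the rest at 1.09 and 1.18. In libraries with at most 10% such reads, the ratio was 0.752 to 0.854 in 8 hearts of the Dp3Tyb cohort and 0.899 to 1.06 in 5 hearts of the Ts1Rhr cohort, which did not overlap. Across the 7 libraries over that limit it was 1.02 to 1.25. The ratio rests on transcript lengths from 1 annotation, so its distance from 1 carries less weight than its order among hearts.

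The first comparison asks whether the extra copy of the Dp3Tyb stretch altered the blood signal. None of the 9 genes passed the test in Dp3Tyb against WT littermates (limma, Benjamini-Hochberg adjusted p = 0.99996 for each), where 8 of 14763 genes did (0.0542%). DESeq2 and edgeR also called 0 of the 9, and 0 had an unadjusted p under 0.05 by limma, beside 413 of all genes. Fold changes on the log2(value + 1) scale ran from -0.05 ± 0.21 (SE) for Hbb-bs to 0.50 ± 0.52 for Hbb-bh1, with a median of 0.13 beside -0.0027 over all genes tested. For no gene were the 2 groups without overlap, as they were for 0.975% of all genes. The values for Hbb-bh1, Slc4a1 (0.39 ± 0.30) and Hba-x (0.28 ± 0.27) included Dp3Tyb heart 1, which was the highest of its group for all 3, and without it they were 0.08, 0.14 and 0.04. The median over the 9 genes was 0.04 without that heart. With 1 heart left out it ranged from 0.0006 without WT heart 5 to 0.26 without Dp3Tyb heart 5. With 5 hearts a group and errors of 0.16 to 0.52, a difference of the size of those errors was not detectable. Differences of several errors could be missed as well. Between the WT groups, Hba-a2 at 1.35 ± 0.26 did not pass (limma, adjusted p = 0.443).

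The same held for Ts1Rhr against its WT littermates. Again 0 of 9 genes passed (limma, adjusted p = 0.795 to 0.853), where 4 of 14867 genes did (0.0269%), and DESeq2 and edgeR also gave 0. An unadjusted p under 0.05 by limma gave 0 of 9 beside 821 of all genes, but 4 of 9 without WT heart 2 (Hbb-y, Hbb-bh1, Hba-x and Slc4a1, beside 608 of 14777 genes) and 5 of 9 without WT heart 5 (Hba-a1, Hba-a2, Hbb-bt, Hbb-bs and Alas2, beside 1660 of 14775), with none past the adjusted threshold in either. Fold changes ran from 0.18 ± 0.30 for Hba-x to 0.51 ± 0.44 for Hbb-bt, with Hbb-bs at 0.49 ± 0.47, Alas2 at 0.38 ± 0.34 and a median of 0.32 beside -0.0016 over all genes. That median was 0.09 by edgeR and by DESeq2, and ranged from 0.13 without WT heart 4 to 0.51 without WT heart 5. No gene separated the groups, against 1.12% of all genes. All 9 values were above 0, but without the 5 libraries of this cohort that exceeded 10% mitochondrial reads (which leaves 2 WT and 3 Ts1Rhr hearts) the median was -0.12, and 5 of the 9 turned negative. WT heart 4 had the lowest level of its group for 8 of the 9 genes (all but Hba-x), and without it Slc4a1 was at -0.02.

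The effects of the 2 duplications were then set against each other. None of the 9 differed between strains (limma contrast over all 20 hearts, adjusted p = 0.99966 for each), where 2 of 15348 genes did (0.013%), with DESeq2 and edgeR at 0 of 9 and 0 of 9 at an unadjusted p under 0.05 by limma. The differences, Dp3Tyb effect minus Ts1Rhr effect, ran from -0.54 ± 0.55 for Hbb-bs to 0.18 ± 0.45 for Slc4a1. With 1 heart left out Hbb-bs ranged from -1.04 to -0.27. Without WT heart 5 of the Ts1Rhr cohort, 2 of 9 had an unadjusted p under 0.05 by limma, beside 356 of 15307 genes, with none past the adjusted threshold.

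**Figure D4:**
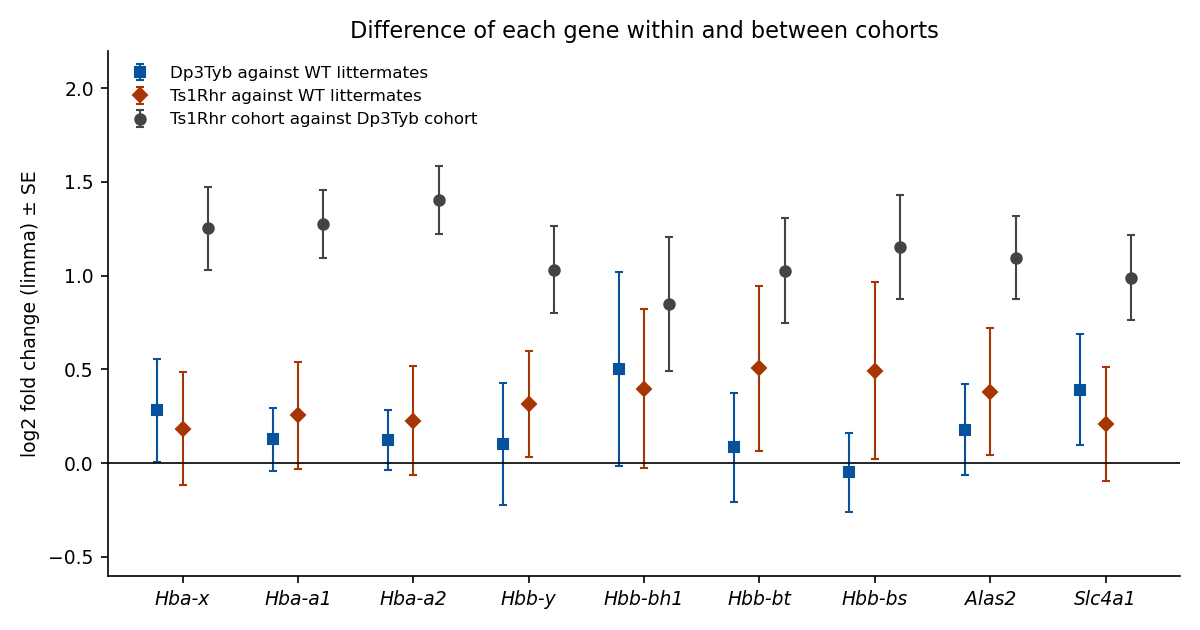
Log2 fold change (limma, log2(value + 1) scale) with SE for each gene in Dp3Tyb against its WT littermates, in Ts1Rhr against its WT littermates, and between the means of the 2 cohorts. Values of the first 2 comparisons lie between -0.05 and 0.51 with none past the test, and the cohort differences lie between 0.85 and 1.41, with 3 past it.

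The larger difference lay between cohorts, in hearts with no duplication as well as with one. Between the WT groups, fitted differences of all 9 genes were above 0 toward the Ts1Rhr cohort, from 0.82 ± 0.40 (SE) for Hbb-bt to 1.35 ± 0.26 for Hba-a2 on the log2 scale. By group medians, Hbb-bh1 was the exception, at 278 in the WT hearts of the Ts1Rhr cohort against 331. Single hearts carried much of some values: without WT heart 5 of the Ts1Rhr cohort Hbb-bt was at 0.37 and Hbb-bs at 0.39 (from 0.88), and without its WT heart 2 Hbb-bh1 was at 0.47 (from 0.90). Limma called 0 of 9 (adjusted p = 0.443 to 0.833) and 0% of all genes as higher, while 7 of 9 had an unadjusted p under 0.05 in that direction, as did 3.18% of all genes. EdgeR called 0 of the 9. DESeq2 called 3 of the 9 (Hba-a2 at 1.49 ± 0.26, Hba-a1 at 1.34 ± 0.26 and Hba-x at 1.41 ± 0.32, adjusted p = 0.00018 to 0.0372) beside 0.0326% of all genes as higher. For the same 3 genes every WT heart of the Ts1Rhr cohort lay above every WT heart of the Dp3Tyb cohort, which was so for 0.426% of all genes.

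After this difference had been seen, both genotypes of a cohort were averaged in the same fit. Hba-a2 was then 1.41 ± 0.18 higher in the Ts1Rhr cohort (a 2.65-fold difference, limma, adjusted p = 0.00219), Hba-a1 1.27 ± 0.18 (adjusted p = 0.00339) and Hba-x 1.25 ± 0.22 (adjusted p = 0.0345), so that 3 of 9 genes passed where 0.0326% of all 15348 genes did in that direction. The other 6 lay between 0.85 ± 0.36 (Hbb-bh1, adjusted p = 0.650) and 1.15 ± 0.28 (Hbb-bs, adjusted p = 0.169), with Alas2 at 1.10 ± 0.22 (adjusted p = 0.0715). DESeq2 called 8 of the 9, all but Hbb-bh1, beside 0.306% of all genes. The call of Hba-x was lost when any of 11 single hearts was left out, namely WT hearts 1 to 4 and Dp3Tyb hearts 2 to 4 of the Dp3Tyb cohort and WT heart 3 and Ts1Rhr hearts 1 to 3 of the Ts1Rhr cohort, whereas Hba-a1 and Hba-a2 passed in all 20 such fits. Scaled to the total of all reads, Hba-a2 alone of the 9 passed (limma, adjusted p = 0.0724 for Hba-a1 and Hba-x). Alas2 passed without WT heart 4 of the Ts1Rhr cohort (limma, adjusted p = 0.00732).

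Heart by heart, all 10 hearts of the Ts1Rhr cohort lay above every heart of the Dp3Tyb cohort for Hba-a2. This was so for 0.00652% of all genes (1 of 15348, Hba-a2 itself). The firmer sum of Hba-a1 and Hba-a2 overlapped, at 15866 to 31777 in the Dp3Tyb cohort and 30505 to 117090 in the Ts1Rhr cohort. The part of the read split between these copies in the separation was not tested. The count of hearts above every Dp3Tyb cohort heart was 9 of 10 for Hba-a1, 8 for Hbb-bs, 7 for Hbb-bt and Alas2, 6 for Hbb-y, 4 for Hba-x, 2 for Slc4a1 and 1 for Hbb-bh1. Among mutant hearts alone, Hba-a1, Hba-a2, Hbb-bt, Hbb-bs and Alas2 separated the cohorts, which was so for 0.364% of all genes. Strain, litter and collection cannot be told apart in this contrast, since each cohort is 1 strain with its own controls. Without the 7 libraries that exceeded 10% mitochondrial reads, Hba-a1 (1.37 ± 0.20, adjusted p = 0.0311) and Hba-a2 (1.58 ± 0.22, adjusted p = 0.0275) still passed by limma, and Hba-x did not (0.96 ± 0.27, adjusted p = 0.213).

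The other red cell genes were described as 5 lists, written with earlier results of these data known. None of the 49 list genes tested in Dp3Tyb and none of the 50 in Ts1Rhr passed (limma). Of the other globin genes, Hbb-bh2, Hbb-bh0, Hbq1a and Hbq1b had medians of 0 to 5.50 and at most 16.2 in any heart, too low to test. In 15 haem synthesis and iron genes the extremes were Fam210b (0.16 ± 0.09) and Urod (-0.04 ± 0.10) in Dp3Tyb, and Abcb10 (0.19 ± 0.15) and Ppox (0.00 ± 0.13) in Ts1Rhr, with medians of 0.03 and 0.07. Over the 20 hearts, r of these 15 genes with Alas2 ran from -0.05 (Uros) to 0.87 (Slc25a37).

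Genes of the red cell membrane and skeleton (16 of 17 tested) had medians of 0.14 in Dp3Tyb and 0.03 in Ts1Rhr, with Rhag, an ammonia channel of the Rhesus complex, at 0.83 ± 0.40 and the spectrin Sptb at -0.18 ± 0.11 in Dp3Tyb, and Rhd, which carries the Rhesus D antigen in people, at 0.40 ± 0.53 in Ts1Rhr. Erythroid regulators spanned a wide range of values, from medians of 7.69 for the transcription factor Gfi1b, 9.61 for Klf1 and 11.5 for Gata1 to 1195 for Zfpm1, and their extremes were Gata1 (0.73 ± 0.78) and Bcl11a (-0.14 ± 0.16) in Dp3Tyb and Epor (0.22 ± 0.29) and Klf1 (-0.49 ± 0.34) in Ts1Rhr. Among red cell enzymes and maturation genes the extremes were Hemgn (0.73 ± 0.50 in Dp3Tyb and 0.46 ± 0.40 in Ts1Rhr), Bnip3l (-0.02 ± 0.07 in Dp3Tyb) and Tspan33 (-0.13 ± 0.19 in Ts1Rhr).

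Between cohorts 1 of the 51 list genes tested passed. Bpgm, which makes the 2,3-bisphosphoglycerate that lowers the oxygen affinity of haemoglobin, was 0.75 ± 0.10 higher in the Ts1Rhr cohort (limma, adjusted p = 0.00219), at 643 to 1174 against 450 to 712, and it passed under each of the 28 settings and single-heart omissions tried. It and 3 of the 9 genes were 4 of the 5 genes in the whole table that this contrast called higher. Medians were 0.42 for red cell enzymes, 0.27 for membrane genes (15 of 16 above 0), 0.14 for regulators and -0.04 for haem synthesis and iron, beside 0.0035 for all genes. No gene on the lists of other cell types passed between cohorts: the medians were 0.10 for cardiac muscle, -0.0043 for endothelium, -0.03 for macrophages and -0.11 for platelets. White cell markers (4 of 7 tested) had a median of -0.26 and liver markers (4 of 8 tested) of -0.30. Within strains the white cell median was 1.31 in Dp3Tyb (4 genes tested) and 0.79 in Ts1Rhr (2 genes tested), and that of macrophages 0.25 and 0.31 (7 of 7 above 0 in each), with 0 genes passing. Of the white cell genes tested, Mpo, S100a8 and S100a9 had medians over all hearts of 8.56, 10.2 and 10.5. These lie near the filter value of 10, so such a gene could enter through the group where it was higher. White cell sums did not overlap in Dp3Tyb, at 107 to 191 against 66.5 to 103 in WT, and their part in the globin values was not tested. The lung and foregut list, a sign of attached tissue, was uneven between hearts, with sums from 5.33 to 487 and medians of 1.98 in Dp3Tyb, -1.70 in Ts1Rhr, 2.62 between the WT groups (6 of 6 above 0, with median sums of 20.6 in the WT hearts of the Dp3Tyb cohort and 250 in those of the Ts1Rhr cohort) and 0.65 between cohorts (6 of 7 genes tested, 0 passing), and its part in the globin values was not tested.

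Across hearts some of the 9 genes varied together more closely than others. Of their 36 pairs, 34 passed by Pearson's r and 35 by Spearman's rho over 20 hearts (log2 values, 100000 permutations, 2-sided, adjusted over 36 pairs). The smallest p that these permutations can give is 1e-05. Part of each pooled correlation is the shift between cohorts, and the permutations moved hearts across cohorts. Passing therefore does not by itself show that 2 genes vary together within a cohort. Within cohorts r over the 36 pairs ran from -0.27 to 0.97 (Dp3Tyb) and from -0.31 to 0.99 (Ts1Rhr). Values within each cohort of 10 hearts are given beside the pooled ones.

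Slc4a1 varied closely with the embryonic chains. Its r with Hbb-y was 0.95 (rho 0.95, permutation p = 1e-05 for each, adjusted 1.71e-05 and 1.89e-05), with 0.90 in the Dp3Tyb cohort, 0.91 in the Ts1Rhr cohort and 0.93 without the 2 hearts farthest from the median of Hbb-y. With Hba-x it was 0.92 (rho 0.91, permutation p = 1e-05 for each), with 0.88 and 0.83 within cohorts and 0.89 without the 2 farthest hearts. It also varied closely with the adult Hba-a1, at 0.86 (rho 0.88, permutation p = 1e-05 for each), and in the Dp3Tyb cohort at 0.93, above its r with Hbb-y and Hba-x there, against 0.65 in the Ts1Rhr cohort and 0.93 without the 2 farthest hearts. Alas2 varied with adult alpha globin: with Hba-a1 its r was 0.97 (rho 0.94, permutation p = 1e-05 for each), with 0.97 and 0.99 within cohorts and 0.96 without the 2 farthest hearts. The near copies Hbb-bt and Hbb-bs had an r of 0.96 (rho 0.96, permutation p = 1e-05 for each), with 0.83 and 0.98 within cohorts and 0.96 without the 2 farthest hearts.

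Pairs of an adult beta chain with an embryonic chain were weaker. Between Hbb-bs and Hba-x r was 0.40 (rho 0.49, permutation p = 0.0784 and 0.0313, adjusted 0.0807 and 0.0322), but -0.27 and -0.31 within the Dp3Tyb and the Ts1Rhr cohort, so the pooled relation did not hold within cohorts. Between Hbb-bs and Hbb-bh1 it was 0.28 (rho 0.40, permutation p = 0.227 and 0.0853, also after adjustment), with 0.19 and -0.17 within cohorts. Without the 2 farthest hearts these became 0.51 and 0.46. Negative values within a cohort were found for 3 pairs in the Ts1Rhr cohort and 1 pair in the Dp3Tyb cohort, each of an adult beta chain with Hba-x or Hbb-bh1. In the Dp3Tyb cohort Alas2 had an r of 0.92 with Hbb-y, against 0.55 in the Ts1Rhr cohort.

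**Figure D5:**
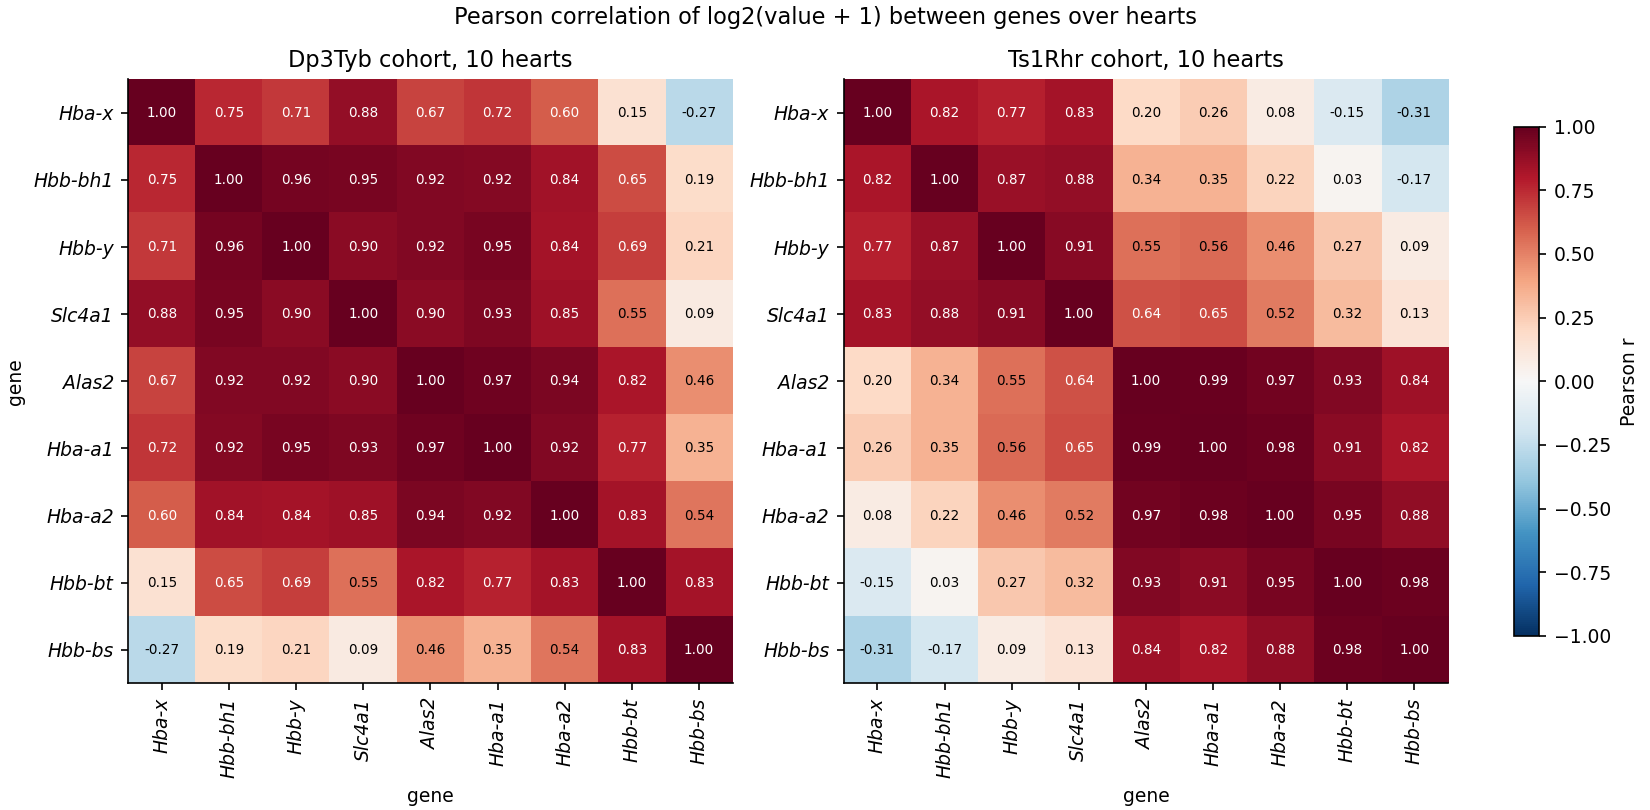
Pearson's r of log2(value + 1) between each pair of the 9 genes over the 10 hearts of the Dp3Tyb cohort (left) and of the Ts1Rhr cohort (right). In both, Hba-x, Hbb-bh1, Hbb-y and Slc4a1 form a block of high r (0.71 or more), which in the Dp3Tyb cohort Hba-a1 meets too (0.72 to 0.95 with these 4), and the adult chains with Alas2 form another in the Ts1Rhr cohort (0.82 or more).

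Among 15348 genes passing the filter, those most like 3 of the 9 were listed by r over the same 20 hearts, as a description (all hearts share their cohort shift and depth). The 10 most like Alas2 were Tent5c (r = 0.93), Ube2l6, Gpx1, Slc25a37, Trim10, Car2, Hmox1, Bpgm, Pdzk1ip1 and Ube2o (0.84). They include mitoferrin (Slc25a37), which brings iron to the mitochondria for haem, haem oxygenase (Hmox1), the antioxidant enzyme Gpx1 and carbonic anhydrase (Car2). The 10 most like Hbb-y were Tent5c (0.94), Pdzk1ip1, Hsd3b6, Car2, Ccdc92b, Tal1, Tmcc2, Trim10, Kel and Epb42 (0.86). Here the red cell surface and skeleton genes Kel and Epb42 and the blood cell transcription factor Tal1 appear. Those most like Hbb-bt included Hmox1 (0.90), Mkrn1, Ncoa4, Thra, Phospho1, Slc25a37, Fam220a, Gpx1 and Sqstm1 (0.84). Among them, Ncoa4 releases iron from ferritin and Sqstm1 is an autophagy receptor.

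The lists of Alas2 and Hbb-y shared 4 genes, those of Alas2 and Hbb-bt shared 3, and those of Hbb-y and Hbb-bt shared 0 of 10. Within cohorts Hmox1 had an r of 0.80 and 0.85 with Hbb-bt, and Tent5c of 0.92 and 0.85 with Hbb-y, in the Dp3Tyb and the Ts1Rhr cohort in turn. Other listed genes were less alike within the Dp3Tyb cohort, with Bpgm at 0.41 and Hmox1 at 0.58 to Alas2 and Phospho1 at 0.47 and Mkrn1 at 0.53 to Hbb-bt. Levels of these genes ranged widely, from a median of 33.4 for Pdzk1ip1 to 2526 for Ncoa4, and which cells of the heart they came from was not measured.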

How the data were processed

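RNA of 20 whole E13.5 hearts was sequenced from mRNA libraries. Per the submitters' processing notes, Trimmomatic 0.36, STAR 2.5.2a, RSEM 1.2.31, DESeq and DESeq2 were used with GRCm38, and the annotation and strand setting are not given in the sources used here. The deposited values are a normalised signal: reads divided by the authors' size factor of each library over all 20. Dividing by the smallest step gave whole reads for 100% of values (tolerance 0.001). RSEM divides reads between near-identical genes.

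Symbols and canonical transcript lengths came from a GRCm39 annotation (44565 of 48795 IDs matched), and coordinates and promoters from RefSeq GRCm38.p6. Groups followed the genotype labels, with control labels, which hold only an initial, read as littermates. Tests used limma 3.58.1 (R 4.3.3, trend and robust) on log2(value + 1), 2-sided, Benjamini-Hochberg threshold 0.05, for genes at 10 or more in at least 5 of the libraries fitted. Each strain was fitted with its controls, and contrasts between strains and cohorts over all 20. Alternatives were another pseudocount, no filter, scaling to library totals, edgeR 4.0.16, DESeq2 1.42.0, leaving out libraries over 10% mitochondrial reads, a fit of all 20 libraries and each heart left out. Scripts were tested on simulated data. The sources do not say beyond littermates how embryos were sampled, so p-values measure the spread between these hearts. Named genes were the 9 members, the extremes of each list and the 10 genes most like Alas2, Hbb-y and Hbb-bt, of which 1 list extreme and 1 gene like Hbb-bt are not reported here. The members and lists were chosen with earlier results of these data known, and the cohort average and the follow-up of Bpgm in it were added after seeing the data.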

Additional observations from a re-analysis of the deposited data

Results flagged for a closer look

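Of 52 groups of 5 hearts examined, 10 held a heart whose gap to its nearest neighbour exceeded 0.71 of the group's range (Dixon's test). Chance gives about 1 in 20 for normally distributed values. The test was run without the log scale used in limma, so that rate may not hold here and the count is only a description. The 10 share hearts and correlated genes, so they are not 10 separate events.

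WT heart 5 of the Ts1Rhr cohort stood apart in adult beta globin, with Hbb-bt at 28040 against 3478 to 7850 in the other 4 hearts and Hbb-bs at 64834 against 7721 to 16077. WT heart 2 of the same group stood apart in Hba-x, at 19989 against 6445 to 8111, and in Slc4a1, at 2439 against 572 to 1093. Dp3Tyb heart 1 stood apart in 4 genes, namely Hbb-y (29324 against 10354 to 15708), Hbb-bh1 (1074 against 148 to 322), Hba-x (8513 against 3169 to 4446) and Slc4a1 (1322 against 516 to 621). The ratio of alpha-like to beta-like chains stood apart in WT heart 5 of the Dp3Tyb cohort, at 1.09 against 0.752 to 0.846, and in Dp3Tyb heart 5, at 1.18 against 0.830 to 0.854. Those 2 libraries had 19.5% and 15.5% mitochondrial reads, the only ones of their cohort over 10%, and the part of this in the ratio was not tested.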

How the results depend on the processing

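No paired analysis was possible because the labels give neither a replicate number nor a litter, and numbers in accession order only name libraries. No member passed for Dp3Tyb, for Ts1Rhr or between strains under any alternative run. Over all genes, Dp3Tyb calls (8) became 4 with no filter, 3 scaled to library totals, 34 by DESeq2, 30 without the libraries over 10% mitochondrial reads, 17 in a fit of all 20 libraries and 2 to 13 with 1 heart left out. Ts1Rhr calls (4) became 2 scaled to totals, 25 by DESeq2, 0 without those libraries, 11 in the fit of 20 and 1 to 6 with 1 heart left out. Calls between strains (2) became 0 with no filter and under both scalings to totals (all reads, or all but globin and mitochondrial reads), and 0 to 3 with 1 heart left out. Between WT groups calls (0) became 6 by DESeq2, 3 of them members, and 0 to 2 with 1 heart left out, members included. Between cohorts calls (7) became 4 with no filter, 3 scaled to totals, 89 by DESeq2, 50 without those libraries and 4 to 27 with 1 heart left out (27 without heart 5 of either Dp3Tyb cohort group). Members called (3) became 1 scaled to totals and 8 by DESeq2. Scaled to totals, Hba-a1 and Hba-x lost their calls (limma, adjusted p = 0.0724 each), as did Hba-x with no filter (0.0711).

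Signs turned only for uncalled values. Without the high-mitochondrial libraries these were Hbb-bt in Dp3Tyb (-0.012), Hba-a1 (-0.18), Hba-a2 (-0.16), Hbb-bt (-0.13), Hbb-bs (-0.19) and Alas2 (-0.12) in Ts1Rhr, and Hba-a1 (0.23), Hba-a2 (0.21), Hbb-bt (0.12), Hbb-bs (0.10), Hbb-bh1 (-0.020), Hba-x (-0.0064) and Alas2 (0.25) between strains. Between strains Hba-a1 and Hba-a2 were at 0.0041 and 0.032 by edgeR and 0.0028 and 0.031 by DESeq2. With 1 heart left out, ranges that crossed 0 were, in Dp3Tyb, Hba-a1 -0.0089 to 0.19, Hbb-bt -0.18 to 0.25, Hbb-bs -0.18 to 0.063 and Hbb-y -0.15 to 0.26. In Ts1Rhr this was Slc4a1, -0.017 to 0.51. Between strains they were Hba-a1 -0.38 to 0.094, Hba-a2 -0.38 to 0.11, Hbb-bh1 -0.32 to 0.39, Hba-x -0.20 to 0.27, Alas2 -0.49 to 0.093 and Slc4a1 -0.11 to 0.41. The cause of these changes was not tested.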
